A study of Mus musculus with 4 samples.

Results

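The urokinase system, the membrane peptidase Anpep and a set of protease inhibitors were followed in RAW 264.7 cells, which are a macrophage-like mouse line. With RANKL, the ligand that starts osteoclast formation, and the macrophage growth factor M-CSF, such cells fuse into osteoclasts that resorb bone. The 9 genes were Plau, Plaur, Anpep, Serpinb6a, Serpinb6b, Cst3, Cstb, Timp1 and Timp2, of 19938 genes that had at least 1 probe set annotated to them alone. They were picked because Plau and Anpep were low in miR-155 cells and Serpinb6b was induced on these same arrays. Their differences are therefore a description and carry no test. All 9 were found, each with 1 probe set, so no choice between probe sets was needed.

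Affymetrix Mouse Gene 1.0 ST arrays measured RNA from 4 cultures of the line. A vector expressing miR-155 was carried by a culture with 72 h of RANKL and M-CSF and by a culture without stimulation. A control vector was carried by a culture with the same 72 h of cytokines and by a culture without stimulation. The study text gives 20 ng/ml, with no word on whether each cytokine had that dose, and names the control cells wild-type, whereas the sample descriptions name a control vector. The labels do not give whether transfected pools or clones were used. All 4 cultures share the cell line and a transfected vector. Each group has 1 array, so no difference can be set against the spread of replicates, and precision is limited by how few arrays there are.

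Urokinase, encoded by Plau, is a secreted serine protease that turns plasminogen into plasmin, and Plaur encodes its receptor, which holds the enzyme on the cell surface. Anpep, or CD13, is a zinc aminopeptidase of the plasma membrane that trims the ends of peptides and marks myeloid cells. Osteoclasts and macrophages secrete serine, cysteine and metalloproteinases, and each class has its own inhibitors: serpins for serine proteases, cystatins for cysteine cathepsins and TIMPs for metalloproteinases.

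The mature 5p strand of the microRNA that the vector is named for and the promoters of 4 of the genes are shown so that the gene values can be read beside them. The sequences are RefSeq's on GRCm38.p6, and a promoter here is the 250 bases before and the 50 after a gene's start. A promoter entry was matched for 7 of the 9 genes; Plau and Cstb are named only. In the microRNA, from chr16:84714143-84714165 on the plus strand, capitals mark the seed, bases 2 to 8, which pairs with target messages.
mmu-miR-155-5p: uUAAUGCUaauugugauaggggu

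In the promoters, capitals mark matches on either strand to the letters of 4 motifs of transcription factor families active in macrophages or osteoclasts. The motifs searched were TGANTCA (AP-1), GGAAA (NFAT), GAGGAA (PU.1) and CACGTG (E-box). The NFAT and PU.1 letters overlap in part. The window of Serpinb6b, the most strongly induced of the genes, is chr13:32965011-32965310 on the plus strand. That of Anpep, the gene lowest in miR-155 cells relative to control cells, is chr7:79848161-79848460 on the minus strand. Timp2 was higher with stimulation in control cells but nearly level in miR-155 cells, and its window is chr11:118355362-118355661 on the minus strand. That of Plaur, whose level stayed nearly flat, is chr7:24462233-24462532 on the plus strand.
Serpinb6b: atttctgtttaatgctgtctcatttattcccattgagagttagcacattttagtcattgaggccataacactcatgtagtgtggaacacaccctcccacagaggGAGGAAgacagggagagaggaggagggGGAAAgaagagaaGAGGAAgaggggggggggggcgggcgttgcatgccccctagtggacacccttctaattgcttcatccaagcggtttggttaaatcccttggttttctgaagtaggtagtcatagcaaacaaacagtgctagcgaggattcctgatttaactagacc
Anpep: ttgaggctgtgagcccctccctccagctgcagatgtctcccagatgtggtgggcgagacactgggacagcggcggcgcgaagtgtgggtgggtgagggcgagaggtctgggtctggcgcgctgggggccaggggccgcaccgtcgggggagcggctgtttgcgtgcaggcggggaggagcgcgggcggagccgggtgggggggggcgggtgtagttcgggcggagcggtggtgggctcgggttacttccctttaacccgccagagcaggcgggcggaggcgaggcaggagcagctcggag
Timp2: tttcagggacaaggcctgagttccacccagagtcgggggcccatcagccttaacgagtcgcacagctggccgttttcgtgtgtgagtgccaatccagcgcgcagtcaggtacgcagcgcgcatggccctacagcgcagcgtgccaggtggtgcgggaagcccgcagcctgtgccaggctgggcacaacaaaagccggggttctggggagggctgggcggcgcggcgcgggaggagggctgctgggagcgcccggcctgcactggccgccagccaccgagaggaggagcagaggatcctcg
Plaur: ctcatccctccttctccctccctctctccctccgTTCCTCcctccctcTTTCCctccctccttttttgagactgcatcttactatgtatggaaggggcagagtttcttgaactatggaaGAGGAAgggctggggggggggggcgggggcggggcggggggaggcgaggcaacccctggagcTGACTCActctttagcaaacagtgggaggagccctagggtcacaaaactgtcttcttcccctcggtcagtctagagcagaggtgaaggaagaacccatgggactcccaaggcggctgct

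The Serpinb6b window held 2 matches to the PU.1 letters and 1 to the NFAT letters, and the Plaur window held 2 and 1, with 1 further match to the AP-1 letters. No match to any of the 4 motifs lay in the Anpep or Timp2 windows, whose G and C made up 72.3% and 68.7% of the bases, against 48.3% for Serpinb6b. Of all 32851 promoter windows, 61.3% held the NFAT letters, 28.3% the PU.1 letters, 7.81% the AP-1 letters and 7.15% the E-box. These matches describe the letters in the windows and are not binding sites.

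The values are log2 expression levels, and a difference of 1 is 2-fold. A floor of 4.25 came from 1212 probe sets for olfactory and vomeronasal receptors, sensory receptors rarely expressed in other tissues, and 13561 genes exceeded it on at least 1 array. The same receptor probe sets give a noise reference for each comparison, the size that 95% of their differences stay under: 0.41 for stimulation in miR-155 cells, 0.48 for stimulation in control cells, 0.47 for miR-155 against control vector with stimulation and 0.37 without. It describes dim probe sets and is not a replicate error. Of the 9 genes, 8 lay above the floor on all 4 arrays and Timp1 on none.

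The stimulated control array stood apart from the others, with Pearson correlations across genes of 0.908 to 0.937 with them, against 0.982 to 0.989 among the other 3. On that array the 9 osteoclast markers had a summed linear level of 34538, against 510 in unstimulated control cells. In stimulated miR-155 cells the sum was 10354, against 394 in unstimulated miR-155 cells. The 8 macrophage markers, all above the floor on every array, summed to 22708 and 25928 in stimulated and unstimulated miR-155 cells and to 11463 and 27179 in stimulated and unstimulated control cells. Plau, Anpep, Serpinb6b and Cstb were higher with stimulation, as was the osteoclast marker sum, under both vectors. Timp2 and Serpinb6a were higher past the noise reference in control cells alone (0.03 and 0.12 in miR-155 cells). Plaur, Cst3 and Timp1 stayed within the noise reference under both vectors. The part of the marker sums in these differences was not tested. Fewer differentiated cells and less RNA of a gene per cell cannot be told apart in such bulk RNA. Granulocyte and mast cell markers reached at most 4.72, 4.71, 4.77 and 4.78 on the stimulated and unstimulated miR-155 and the stimulated and unstimulated control arrays, and T and B cell markers at most 4.84, 4.77, 4.91 and 4.84. Fibroblast and osteoblast markers reached 5.79, 5.72, 5.67 and 5.76 in the same order (Col1a1), with summed levels of 233, 222, 228 and 228. Among them Dcn, the matrix protein decorin, was at 4.05 and 3.54 in stimulated and unstimulated miR-155 cells, both below the floor, against 5.04 in stimulated control cells and 3.48, below the floor, in unstimulated ones. Epithelial and endothelial markers reached 5.66, 6.21, 5.37 and 5.84 (Krt8), with summed levels of 144, 167, 134 and 152, while Epcam, Pecam1, Cdh5 and Kdr were below the floor on every array. The part of these markers in the results was not tested. The Mir155 probe set stayed below the floor on all 4 arrays, between 3.58 and 3.73; the assay does not read the mature microRNA and so does not check the vector.

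Counted over the 9 genes, 3 were past 2-fold higher with stimulation in miR-155 cells, where 1.15% of all genes above the floor were. In control cells 5 were, where 5.73% of all genes were. None was past 2-fold lower in either, where 0.184% and 6.92% of all genes were. In miR-155 against control cells, 6 were past 2-fold lower with stimulation, against 5.55% of all genes, and 1 without stimulation, against 0.546%. None was past 2-fold higher in either, against 5.60% and 0.0664% of all genes. At 1.5-fold, 2 were lower without stimulation, Anpep and Plau, against 3.14% of all genes. The medians of the 9 differences were 0.12 and 2.03 for stimulation in miR-155 and control cells, and -1.49 and -0.35 for miR-155 against control vector with and without stimulation; over all genes above the floor they lay between -0.03 and -0.00. Since the genes were picked on these arrays, nothing is read from these counts, and comparisons that share an array are not independent.

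**Figure D1:**
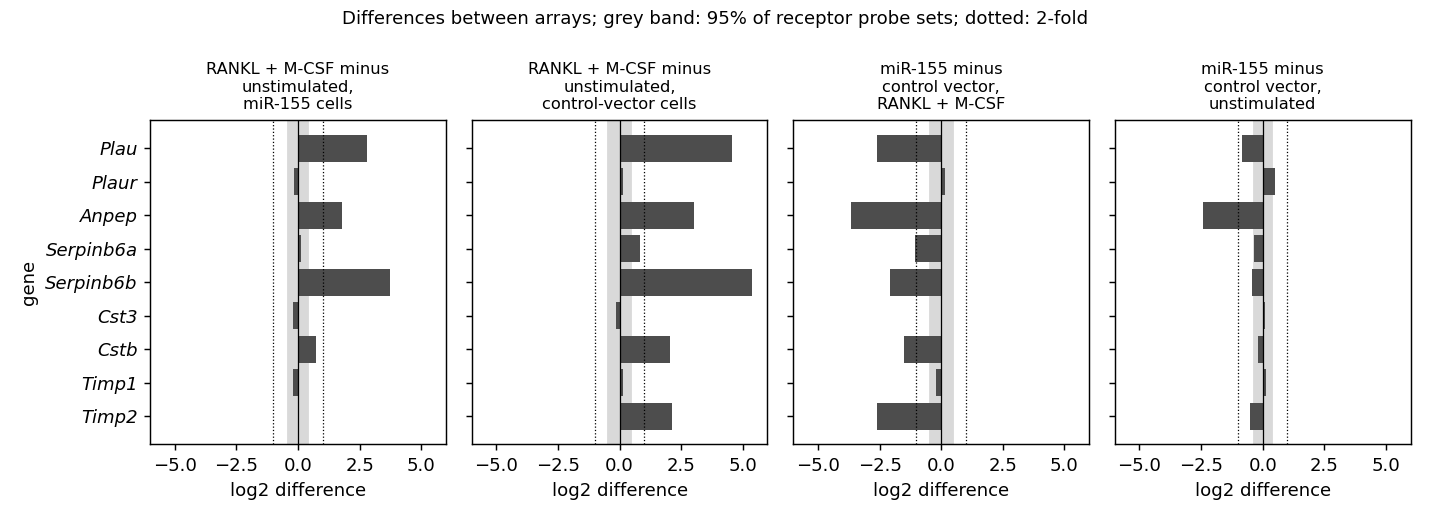
Log2 difference (horizontal axis) of each of the 9 genes in 4 comparisons, 1 bar per gene, with the range of 95% of receptor probe sets as a grey band and 2-fold as dotted lines. Bars for stimulation point right for Plau, Anpep, Serpinb6b and Cstb in both vectors and for Timp2 and Serpinb6a past the band in control cells alone, and bars for miR-155 with stimulation point left past 2-fold for 6 genes.

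Plau was strongly higher with stimulation under both vectors and lower in miR-155 cells in both states. Its level was 9.22 in stimulated and 6.43 in unstimulated miR-155 cells, and 11.83 in stimulated and 7.27 in unstimulated control cells. Both stimulated arrays were above both unstimulated ones, and all gaps between neighbouring levels were larger than the noise reference. How many of all genes had this order was not counted. Stimulation came with a 6.92-fold higher level in miR-155 cells (log2 2.79) and a 23.5-fold higher level in control cells (log2 4.56). In miR-155 cells Plau was 6.11-fold lower than in control cells after stimulation (log2 -2.61) and 1.80-fold lower before it (log2 -0.84).

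Plaur, the urokinase receptor, stayed nearly level. Its level was 8.22 in stimulated and 8.40 in unstimulated miR-155 cells, against 8.06 in stimulated and 7.91 in unstimulated control cells. The levels spanned 0.49 over the 4 arrays, and no gap between neighbouring levels passed the noise reference. The difference between unstimulated miR-155 and control cells, 0.49, was past the noise reference of 0.37 and upward, opposite in sign to that of Plau, and was under 1.5-fold.

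**Figure D2:**
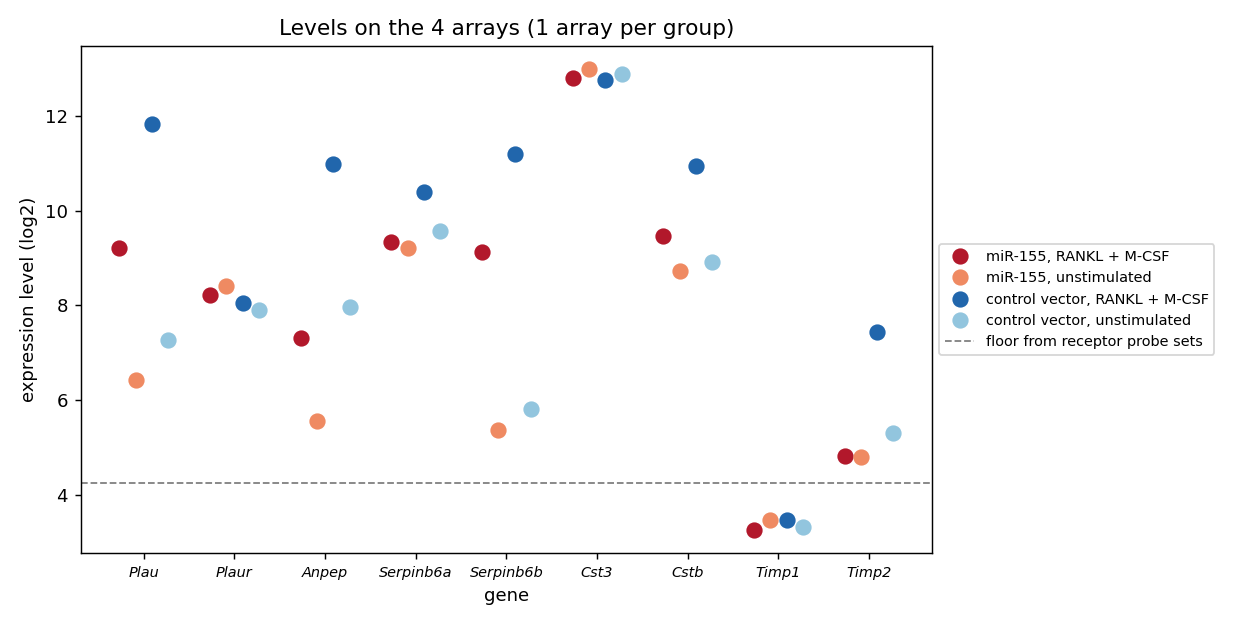
Log2 expression level (vertical axis) of each of the 9 genes on the 4 arrays, 1 point per array, with the floor of 4.25 as a dashed line. Stimulated control cells (dark blue) hold the top point for Plau, Anpep, Serpinb6a, Serpinb6b, Cstb and Timp2, while the points of Plaur and Cst3 lie close together and those of Timp1 lie below the floor.

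Most other genes that make, bind, clear or block plasminogen activators were within 2-fold. The list held 23 genes including Plau and Plaur, of which 19 were on the array and 13 above the floor. The medians with stimulation of those above the floor were -0.01 in miR-155 and 0.15 in control cells, against -0.03 and -0.02 over all genes. None was past 2-fold lower in either, against 0.184% and 6.92% of all genes. With Plau, picked on these arrays, in both counts, 1 was past 2-fold higher in miR-155 and 2 in control cells, against 1.15% and 5.73%. The second of these was St14, the membrane serine protease matriptase, at 7.30 and 6.81 in stimulated and unstimulated miR-155 cells, against 8.46 and 6.76 in stimulated and unstimulated control cells. Igf2r, which binds the urokinase receptor and mannose-6-phosphate, differed between miR-155 and control cells by -0.99 with and -1.13 without stimulation. Lrp1, the endocytic receptor that clears urokinase bound to its inhibitors, differed by -0.59 and -0.64 in the same way. Serpinb8 stayed above the floor with differences within 0.42 in all 4 comparisons. Serpinb2, which encodes the inhibitor PAI-2, lay below the floor on every array (3.16 to 3.31), as did the tissue-type activator gene Plat (3.57 to 3.64) and plasminogen itself, Plg (3.74 to 4.08). The annexin pair that holds plasminogen at the surface, Anxa2 (11.19 to 11.60) and S100a10 (12.24 to 12.60), varied little over the arrays.

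Anpep was the gene with the widest gap between the vectors. It measured 7.32 in stimulated and 5.55 in unstimulated miR-155 cells, and 10.99 in stimulated and 7.96 in unstimulated control cells. Both miR-155 arrays lay below both control arrays, so that stimulated miR-155 cells stayed 0.64 below unstimulated control cells, past the noise reference of 0.42 for those 2 arrays. In miR-155 cells Anpep was 12.7-fold lower with stimulation (log2 -3.67) and 5.31-fold lower without (log2 -2.41). Of the 13561 genes, 3 had a lower difference with stimulation and 3 without. Anpep was picked for its low level in miR-155 cells on these arrays, so these ranks and the order of the arrays are descriptions. The share of all genes with this order was not counted. It was nonetheless inducible under both vectors, 3.41-fold (log2 1.77) in miR-155 cells and 8.14-fold (log2 3.03) in control cells.

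Anpep was read beside other aminopeptidases and a wider set of peptidases, not all of them at the cell surface. Of 24 listed genes, 23 were on the array and 16 above the floor. Between unstimulated miR-155 and control cells Anpep, picked for its low level in miR-155 cells, was the sole member past 2-fold. Of all genes 0.546% were lower there, and the median of the list was -0.01. With stimulation the median was -0.37, against -0.02 over all genes. In that comparison 2 were past 2-fold lower in miR-155 cells, the picked Anpep among them, and 1 higher, against 5.55% and 5.60% of all genes. The second lower gene was Cpe, a carboxypeptidase that processes prohormones, at 4.07 and 3.60 in stimulated and unstimulated miR-155 cells, both below the floor, against 6.31 in stimulated control cells and 3.61, below the floor, in unstimulated ones. It was thus at least 4.18-fold lower in stimulated miR-155 than in stimulated control cells. Erap1, which trims peptides for antigen presentation, ran the other way at 8.46 and 8.49 in stimulated and unstimulated miR-155 cells, against 6.52 and 8.52 in stimulated and unstimulated control cells. Dpp7, a lysosomal dipeptidyl peptidase, was higher with stimulation by 0.82 in miR-155 and 1.01 in control cells, and differed between miR-155 and control cells by -0.83 with and -0.63 without stimulation.

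**Figure D3:**
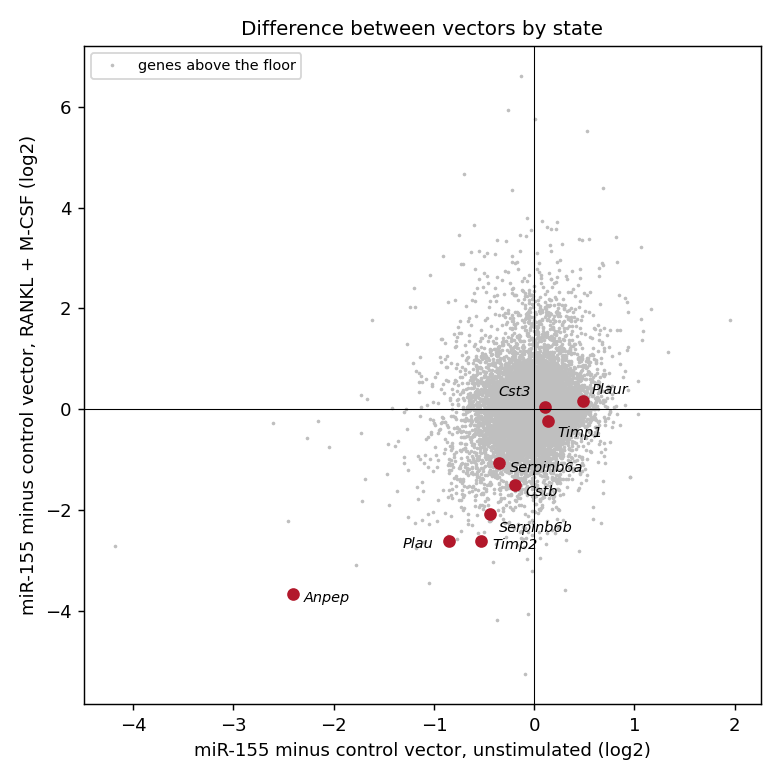
Log2 difference between miR-155 and control-vector cells without stimulation (horizontal axis) and after RANKL and M-CSF (vertical axis), 1 grey point per gene above the floor and a red point for each of the 9 genes. Anpep lies far to the lower left (-2.41 and -3.67), Timp2 and Plau lie low with smaller horizontal shifts, and Plaur, Cst3 and Timp1 lie near the centre.

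The serpins of clade B act inside cells on serine and, for some, cysteine proteases. Serpinb6a, the mouse counterpart of a human inhibitor of cathepsin G and trypsin-like enzymes, stood at 9.33 and 9.21 in stimulated and unstimulated miR-155 cells and at 10.39 and 9.56 in stimulated and unstimulated control cells. The stimulated control array was above the other 3, which were not separated from their neighbours beyond the noise reference. Stimulation came with a 1.78-fold higher level in control cells (log2 0.83), while the difference in miR-155 cells, 0.12, was within the noise reference. After stimulation Serpinb6a was 2.08-fold lower in miR-155 than in control cells (log2 -1.06), close to the 2-fold line.

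Serpinb6b, its paralogue, was low without stimulation and high with it. It measured 9.12 in stimulated and 5.37 in unstimulated miR-155 cells, and 11.19 in stimulated and 5.81 in unstimulated control cells. Both stimulated levels were above both unstimulated ones, but Serpinb6b was picked for its induction on these arrays. Its order and ranks are therefore descriptions, and the share of all genes with this order was not counted. The level was 13.5-fold higher with stimulation in miR-155 cells (log2 3.75) and 41.7-fold higher in control cells (log2 5.38); 6 and 7 genes had a higher difference in these comparisons. Stimulated miR-155 cells had a 4.20-fold lower level than stimulated control cells (log2 -2.07), and unstimulated miR-155 cells a 1.36-fold lower one than unstimulated control cells (log2 -0.44). Whether probes of the paralogues cross-react was not tested.

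Serpinb1a, Serpinb7 and Serpinb11, also of clade B, were highest in stimulated control cells. Of 24 listed genes, Serpinb6a and Serpinb6b included, 22 were on the array and 10 above the floor; 3 of these 10 passed it on 1 array only and so had to differ. In miR-155 cells 2 were past 2-fold higher with stimulation and in control cells 5, with Serpinb6b, picked for its induction, in both counts. Over all genes above the floor 1.15% and 5.73% were. None was past 2-fold lower, against 0.184% and 6.92% of all genes. The medians were 0.38 and 0.95, against -0.03 and -0.02 over all genes. These counts use values below the floor as measured. With such values set to the floor they became 1 and 4, and the medians 0.12 and 0.83. Between the vectors 6 were past 2-fold lower in miR-155 cells with stimulation, or 5 with low values at the floor, against 5.55% of all genes. Without stimulation none was, against 0.546%. The member lost in control cells and between the vectors was Serpinb1c, above the floor in stimulated control cells only (4.72), with a bound of at least 1.39-fold in each. Serpinb1a, an inhibitor of neutrophil serine proteases, was at 4.65 and 3.75 in stimulated and unstimulated miR-155 cells and at 7.85 and 3.77 in stimulated and unstimulated control cells, at least 1.32-fold and at least 12.2-fold higher with stimulation. It was far above the floor in stimulated control cells only. Serpinb7 was at 3.86 and 3.17 in stimulated and unstimulated miR-155 cells, both below the floor, and at 6.12 in stimulated control cells, at least 3.66-fold above the 3.33, below the floor, of unstimulated ones. Serpinb11 was at 4.37 and 3.19 in stimulated and unstimulated miR-155 cells and at 5.70 and 3.02 in stimulated and unstimulated control cells, below the floor without stimulation under both vectors and so at least 1.09-fold and at least 2.74-fold higher with it. Serpinb6c, Serpinb6d and Serpinb6e, further paralogues of Serpinb6a, were below the floor on every array. The granule protease genes Ctsg (4.19 to 4.43) and Elane (4.18 to 4.49) were near the floor as well. The list held 12 genes of granule proteins, the peroxidase Mpo among them. All were on the array and 3 were above the floor. None of these 3 was past 2-fold in any of the 4 comparisons, where between 0.0664% and 6.92% of all genes were in a given direction.

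**Figure D4:**
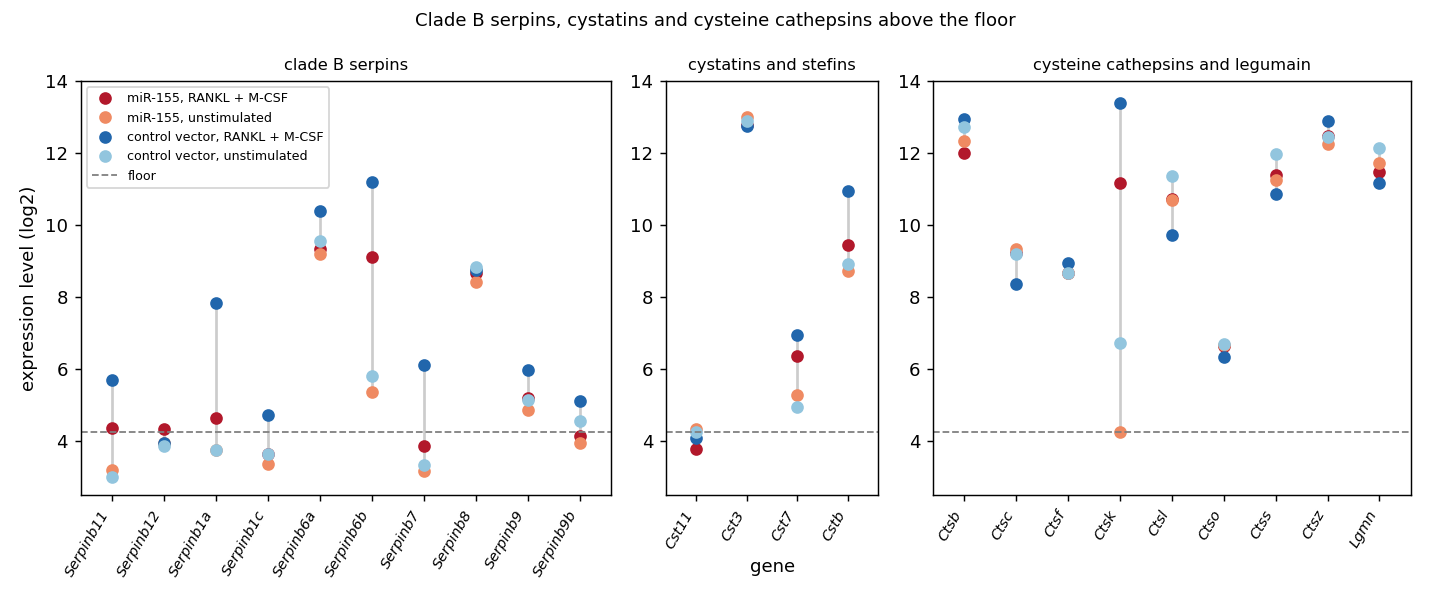
Log2 expression level (vertical axis) of the clade B serpins, cystatins and cysteine cathepsins above the floor, 1 point per array and gene, with a grey bar over each gene's range and the floor of 4.25 as a dashed line. Serpinb1a, Serpinb6b, Serpinb7, Serpinb11 and Cstb have their top point in stimulated control cells (dark blue), as does Ctsk, while Ctsl, Ctss and Lgmn have their lowest point there.

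The cystatins split. Cst3, the secreted cystatin C that inhibits cysteine cathepsins outside cells, was flat at 12.79 and 12.99 in stimulated and unstimulated miR-155 cells and 12.75 and 12.88 in stimulated and unstimulated control cells. Its levels spanned 0.24, and none of its gaps passed the noise reference. Cstb, the cytosolic cystatin B, measured 9.46 and 8.73 in stimulated and unstimulated miR-155 cells and 10.95 and 8.92 in stimulated and unstimulated control cells. Both stimulated arrays were above both unstimulated ones, which did not differ beyond the noise reference. How many of all genes had this order was not counted. Cstb was 1.66-fold higher with stimulation in miR-155 cells (log2 0.73) and 4.10-fold higher in control cells (log2 2.03), and 2.81-fold lower in stimulated miR-155 than in stimulated control cells (log2 -1.49).

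Among 20 listed cystatins, stefins and relatives, 15 were on the array and 4 above the floor. Cst7, cystatin F of immune cells, was at 6.37 and 5.29 in stimulated and unstimulated miR-155 cells and at 6.95 and 4.94 in stimulated and unstimulated control cells, past 2-fold higher with stimulation in both (1.08 and 2.01). Of the cysteine proteases that cystatins block, 11 were listed and 9 were above the floor. Their medians with stimulation were -0.02 in miR-155 and -0.35 in control cells, against -0.03 and -0.02 over all genes. Past 2-fold higher with stimulation was 1 gene under each vector, against 1.15% of all genes in miR-155 and 5.73% in control cells. That gene was Ctsk, the collagen-degrading cathepsin K, at 11.18 and 4.26 in stimulated and unstimulated miR-155 cells and 13.40 and 6.72 in stimulated and unstimulated control cells. In control cells 2 were past 2-fold lower with stimulation, Ctsl (-1.63) and Ctss (-1.10), against 6.92% of all genes. In miR-155 cells none was (0.03 and 0.14 for Ctsl and Ctss), against 0.184%.

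Timp1 lay below the floor throughout, at 3.25 and 3.47 in stimulated and unstimulated miR-155 cells and 3.47 and 3.32 in stimulated and unstimulated control cells, so its differences are between values that are all under the floor. Timp2, which inhibits metalloproteinases and also forms a complex with Mmp14 on the cell surface, measured 4.82 and 4.79 in stimulated and unstimulated miR-155 cells and 7.43 and 5.31 in stimulated and unstimulated control cells. The stimulated control array was high and the other 3 were low, with unstimulated control cells 0.50 above stimulated miR-155 cells. The level with stimulation differed by 0.03 in miR-155 cells, within the noise reference, and was 4.34-fold higher in control cells (log2 2.12). Stimulated miR-155 cells had a 6.12-fold lower level than stimulated control cells (log2 -2.61), and only 21 of 13561 genes had a lower difference. The difference between unstimulated miR-155 and control cells was -0.53. It became -0.15 with a floor of 5.17, from the 99th percentile of the receptors, because both miR-155 values lie under that floor.

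The other metalloproteinase inhibitors on the list, Timp3, Timp4 and Reck, stayed below the floor. Of 20 matrix metalloproteinases 19 were on the array and 9 above the floor. With stimulation 1 was past 2-fold higher in miR-155 cells (median -0.23) and 3 in control cells (median 0.07). Over all genes above the floor 1.15% and 5.73% were (medians -0.03 and -0.02). Mmp14, the membrane-bound enzyme that Timp2 binds, was at 5.03 and 5.26 in stimulated and unstimulated miR-155 cells and at 8.60 and 4.95 in stimulated and unstimulated control cells, so that it too was high on the stimulated control array only. Mmp9, the gelatinase of osteoclasts, was high on both stimulated arrays, at 9.46 and 4.59 in stimulated and unstimulated miR-155 cells and 12.14 and 5.12 in stimulated and unstimulated control cells. Mmp19 was at 5.19 and 4.91 in stimulated and unstimulated miR-155 cells, against 6.32 and 5.15 in stimulated and unstimulated control cells.

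Of the 9 genes, the 6 whose difference with stimulation passed the noise reference in control cells had a smaller one in miR-155 cells. The control response both picks these 6 and is subtracted below, so a smaller miR-155 response was favoured in advance. Among all genes above the floor, stimulation put 777 past 2-fold higher with the control vector, against 156 with the miR-155 vector. How many genes picked by the same rule had a smaller miR-155 response was not counted, so nothing is read from these 6. The difference of the responses, miR-155 minus control, was -2.09 for Timp2, -1.77 for Plau, -1.63 for Serpinb6b, -1.30 for Cstb, -1.26 for Anpep and -0.71 for Serpinb6a, each past the noise reference of 0.64. Of the 9 genes, 5 were past 2-fold in this direction, against 4.64% of all genes, and none in the other, against 6.63%. Past 4-fold only Timp2 was, against 0.501% of all genes. For Plaur (-0.32), Cst3 (-0.07) and Timp1 (-0.36) it stayed within the noise reference. By the order of their levels, Plau, Serpinb6b and Cstb had both stimulated arrays on top, and Anpep, Serpinb6a and Timp2 both control arrays. The share of all genes with each order was not counted, and Plau, Anpep and Serpinb6b were picked on these arrays, so nothing is read from the orders. Plaur had both miR-155 arrays on top. The gap between the upper and the lower pair of arrays was within the noise reference for Serpinb6a (0.23) and Plaur (0.16). Cst3 and Timp1 had no gap between neighbouring levels past it.

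Genes with the most similar profile were found by the root mean square difference of levels centred on each gene's own mean over the 4 arrays. The nearest to Plau were the chemokine receptor gene Ccr1 (0.27), Edil3, an integrin-binding matrix protein (0.30), and the kinase Src (0.33). Both unstimulated values of Ccr1, 3.17 in miR-155 and 3.59 in control cells, were below the floor, so its distance and rank rest in part on background signal. Src measured 8.26 and 5.68 in stimulated and unstimulated miR-155 cells and 10.25 and 5.89 in stimulated and unstimulated control cells. Anpep had no neighbour as close: Gas6, a ligand of the Axl and Mertk receptors, was at 0.41, Il1rn, the interleukin 1 receptor antagonist, at 0.57 and Layn, a hyaluronan receptor, at 0.65. Gas6 shared the lower unstimulated level in miR-155 cells, 5.29 against 7.07 in unstimulated control cells.

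For Serpinb6b the nearest were the immunoreceptor Oscar (0.21), the sodium-proton exchanger Slc9b2 (0.31) and the actin-severing protein Scin (0.31). The same limit holds for Scin, at 3.95 in miR-155 and 4.13 in control cells without stimulation. Cstb was matched most closely by Atp6ap2, an accessory subunit of the proton pump (0.03), Fgd6, a guanine nucleotide exchange factor (0.04), and Nabp1, a single-stranded DNA binding protein (0.05). Timp2 was nearest to Arhgap31 (0.11), the ubiquitin ligase Cblb (0.11) and the cobalamin carrier Tcn2 (0.17), and Serpinb6a to Aff4 (0.01), Arfgef2 (0.03) and Synj2 (0.03). These distances, over 4 arrays and among 13561 genes, are descriptions, and a gene of small spread can have closer neighbours than a gene of wide spread.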

How the data were processed

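Total RNA of each of 4 cultures was purified with RNeasy and 100 ng labelled with biotin, per the labels' protocols. The authors deposited 1 log2 value for each probe set and array, made with RMA (background correction, quantile normalization, probe summary) and Partek, per the submitters' processing notes; neither versions nor build were stated there. Array medians lay between 4.58 and 4.62. Quantile normalization hides a change in total RNA per cell, and arrays give no read depth.

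By the platform annotation, 21789 of 35557 probe sets had exactly 1 symbol, 1621 had several and 12147 had none; 21698 of the first were found by gene ID in the RefSeq table (GRCm38.p6). A gene was read from its probe set of highest mean. The floor is the 95th percentile of all receptor values. Differences of log2 values were taken, tested on simulated data, and counted past 2-fold with no test, since each group has 1 array. Named genes are the 9 members, up to 3 genes of each of 10 lists with the largest difference, and the 3 nearest profiles of members spanning over 1 (log2), or genes named as near or below the floor. Serpinb8, Anxa2, S100a10 and Lgmn were added after their values were seen. The members and lists were chosen with earlier results of these data known. Python 3.11.15, numpy 2.4.6, pandas 2.3.3 and matplotlib 3.10.9 were used.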

Additional observations from a re-analysis of the deposited data

Results flagged for a closer look

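Of the 9 genes, none had differences of opposite sign past the noise reference between the vectors or between the states. The same check covered the genes named for the largest difference in a list or the nearest profile, not whole lists. Among these, 3 had such opposite signs. Their difference between miR-155 and control cells was above 0 with stimulation and below 0 without. The share of all genes with such signs was not counted. Ctsl, cathepsin L, stood at 0.99 with and -0.68 without stimulation. Ctss, cathepsin S, stood at 0.52 and -0.72. Wfdc17, a small WAP-domain protein, stood at 1.63 and -0.76, with its stimulated control value below the floor. With 1 array per group these differences between states were not tested.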

How the results depend on the processing

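Of 270 member differences under 6 alternatives (mean of all probe sets, quantile normalization again, arrays centred on their medians, values below the floor set to it, a floor of 5.17, and no floor), 264 moved by less than 1 SD of the receptor differences, 6 by more and 0 changed sign as a call. The largest move was 0.38, for Timp2 between the unstimulated vectors, and the 6 larger moves were those of Timp1 and Timp2 under the floors. The mean of probe sets changed nothing because each member has 1. Taking no floor could not move a member difference or count either, because values below the floor are used as measured in the main setting. Setting low values to the main floor could move Timp1 alone, and the floor of 5.17 only Timp1 and Timp2. Differences that could not move say nothing about stability. Only the repeated normalization and the centring could move every member. Of 40 counts of members past 2-fold, 38 stayed within 1.5 times. The exceptions were the threshold itself: at 1.5-fold 2 members were lower in unstimulated miR-155 cells (Anpep and Plau), against 1 at 2-fold, and at 4-fold 1 member (Timp2) differed between the responses, against 5 at 2-fold. No paired analysis was possible because each group has 1 array, and no replicate could be left out. Signal near the floor limits Timp2 and the dim serpins. The lowest value of Serpinb6b, 5.37 in unstimulated miR-155 cells, lies above both floors, so its differences could not move under them.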

Other observations

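ADAM metalloproteases, several of which shed surface proteins such as cytokine precursors and receptors, were listed with the related Adamts1, Adamts4 and Adamts5. The list held 11 genes, all on the array and 8 above the floor. Adam17, the TNF convertase, was at 10.24 and 10.32 in stimulated and unstimulated miR-155 cells and at 7.98 and 10.51 in stimulated and unstimulated control cells. It was the sole member past 2-fold lower with stimulation (-2.54, in control cells, where 6.92% of all genes were). Adam15 differed by -0.91 with stimulation under both vectors. Adam8 stood at 9.61 and 9.90 in stimulated and unstimulated miR-155 cells and at 9.01 and 9.81 in stimulated and unstimulated control cells.

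Of 21 listed serine protease inhibitors outside clade B, 16 were on the array and 9 above the floor. Serpind1, heparin cofactor II, was at 4.56 and 3.88 in stimulated and unstimulated miR-155 cells and at 5.23 and 3.76 in stimulated and unstimulated control cells, at least 1.24-fold and at least 1.98-fold higher with stimulation. Serpinf1, which encodes the secreted factor PEDF, was at 5.31 and 5.47 in stimulated and unstimulated miR-155 cells, against 4.97 and 4.95 in stimulated and unstimulated control cells. Wfdc17 was at 5.75 in both miR-155 cultures, at 4.12 in stimulated control cells, below the floor, and at 6.51 in unstimulated control cells.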
